A study of Mus musculus with 10 samples.

Results

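The 8 genes described here encode pore-forming subunits of the ionotropic AMPA and NMDA glutamate receptors (Gria1, Gria2, Gria3, Gria4, Grin1, Grin2b, Grin2d and Grin3a). They were chosen by name, with earlier results of these data known. Only the 15899 genes that passed the authors' filter on low counts were open to choice, so that the level of a subunit in these libraries decided whether it could be listed. Grin2a, a further NMDA subunit that the matrix holds, is described among the related genes, while Grin2c and Grin3b were not analysed here. RNA that came down with an anti-FLAG antibody was sequenced (RIP-seq) from neurospheres, floating aggregates of neural stem and progenitor cells of the adult mouse subependymal zone grown in EGF and FGF. Tagged cultures (FLAG) came from Mex3aFLAG/FLAG knock-in mice, in which endogenous MEX3A, an RNA-binding protein of the KH domain type, carries a 3X-FLAG peptide at its C-terminus. Control cultures (WT) came from mice of the same background without the tag. The immunoprecipitation was run after formaldehyde fixation (crosslinked, 2 FLAG and 2 WT libraries) or without it (native, 3 FLAG and 3 WT libraries). All cultures were labelled as 10 weeks of age and as stem cell cultures, and the labels give no sex. In this design a higher value in FLAG than in WT stands for recovery that needs the tag, and RNA in the WT libraries is background of the beads and antibody. No input RNA was analysed here, so a lower or higher value cannot be divided between a different amount of the transcript in the culture (fewer cells that make it, or less of it per cell) and a different recovery on the beads. The replicates are biological according to the methods.

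AMPA receptors are tetramers of the products of Gria1 to Gria4 and carry most fast excitatory currents in the brain. NMDA receptors need the product of Grin1 together with products of the Grin2 or Grin3 genes. Both families are best known from neurons, but glial and progenitor cells of the subependymal zone also transcribe some of these genes.

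Proteins of the MEX-3 family bind a bipartite sequence called the MEX-3 recognition element, usually looked for in the 3′ UTR. Here it was searched on the sense strand as A, G or T, then G or T, then AG, then 0 to 8 bases of any kind, then T, a base other than G, and TA. In the longest annotated 3′ UTR, 7 of the 8 members had 1 match or more, against 79.0% of 12219 coding genes in the matrix. The match closest to the 3′ end of each UTR is shown, with its 2 conserved parts in capitals and up to 5 flanking bases on each side (GRCm38, written 5′ to 3′ on the strand of the gene).
Gria1, chr11:57328978-57329002, plus strand: atgccTGAGcccatctTTTAactct
Gria2, chr3:80681566-80681591, minus strand: aaaatATAGtctcaattTTTAagctc
Gria3, chrX:41678268-41678290, plus strand: ttcagAGAGgaaacTTTActgag
Gria4, chr9:4418549-4418574, minus strand: cacacATAGctgcttctTTTAtcagt
Grin2b, chr6:135713429-135713449, minus strand: ttttgTGAGctgTATAgattt
Grin2d, chr7:45832370-45832393, minus strand: ctaggGGAGcctgttTTTAacctt
Grin3a, chr4:49662531-49662550, minus strand: cgtccTGAGttTCTAtttca

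The longest UTRs held the most matches. The 18868-nt UTR of Grin2b had 57 matches (3.02 per kb) and the 7271-nt UTR of Gria2 had 27 (3.71 per kb). Gria4 had 7 matches in 2259 nt (3.10 per kb) and Grin3a had 7 in 3618 nt (1.93 per kb). Gria1 had 5 in 2601 nt, Gria3 had 4 in 2589 nt and Grin2d had 1 in 900 nt. Grin1 had none in 1190 nt, a length at which 85.3% of 1713 genes with UTRs within 20% of it had a match. Among genes with UTRs within 20% of theirs, the share with a match was 97.8% for Gria1, 97.7% for Gria3, 96.8% for Gria4, 99.4% for Grin3a and 76.7% for Grin2d. The element is short and common in UTRs of these lengths, and a match here is a description of letters only.

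Before the members, the libraries themselves need a description. Mex3a, the targeted gene, was higher in both FLAG crosslinked libraries (3.92 and 4.16, deposited log2 values) than in both WT crosslinked libraries (2.75 and 3.03). It was also higher in the FLAG native (4.03 to 6.10) than in the WT native libraries (2.89 to 3.52). Xist, the RNA that coats the inactive X chromosome, was at 10.6 and 10.9 in FLAG crosslinked and at 8.56 to 9.52 in FLAG native. In the WT libraries it was at -0.71 in crosslinked replicate 1, 0.68 in native replicate 3, 3.13 in native replicate 1, 7.63 in native replicate 2 and 10.7 in crosslinked replicate 2. The summed level of 4 Y-linked genes (Ddx3y, Uty, Kdm5d and Eif2s3y) was 6.83 to 7.78 in the other 4 WT libraries, -1.34 in WT crosslinked replicate 2, -0.51 and -2.01 in FLAG crosslinked and 1.65 to 3.68 in FLAG native. WT crosslinked replicate 2 thus had the Xist and Y-linked levels of the FLAG crosslinked libraries, and it stands apart from the other WT libraries in several members below. FLAG native replicates 1 and 3 also stand apart, with 329 and 178 genes tied at the lowest value against 1 to 3 in the other libraries. Of the neural stem cell and astroglial markers 7 of 8 were in the matrix, with a summed level of 10.9 to 11.5 in all libraries. None of the 7 was called in FLAG against WT (limma), but 4 were higher at an unadjusted p below 0.05 with a log2 difference above 0.58 over all libraries, against 7.24% of all genes. Aldoc was among them at 1.02, and the median difference of the list was 0.79. Slc1a3 and Egfr went the other way, at -0.44 and -0.33. The part of these markers in the members' differences was not tested.

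Gria1, Gria4 and Grin2b had lower values in the FLAG libraries than in all WT libraries but 1, WT crosslinked replicate 2, in which they were at the FLAG level. In native conditions Gria4 was 6.88-fold lower in FLAG and Grin2b 3.16-fold lower, and these 2 members passed the test. Gria2 and Grin3a had lower values in native FLAG by smaller amounts that did not pass the test, Gria3 had the smallest native difference, and Grin1 and Grin2d, both of low level, had higher values in native FLAG. None of the 8 was called higher in FLAG, except Grin1 in native libraries when limma array weights were used (difference 2.00, adjusted p = 0.0377).

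**Figure D1:**
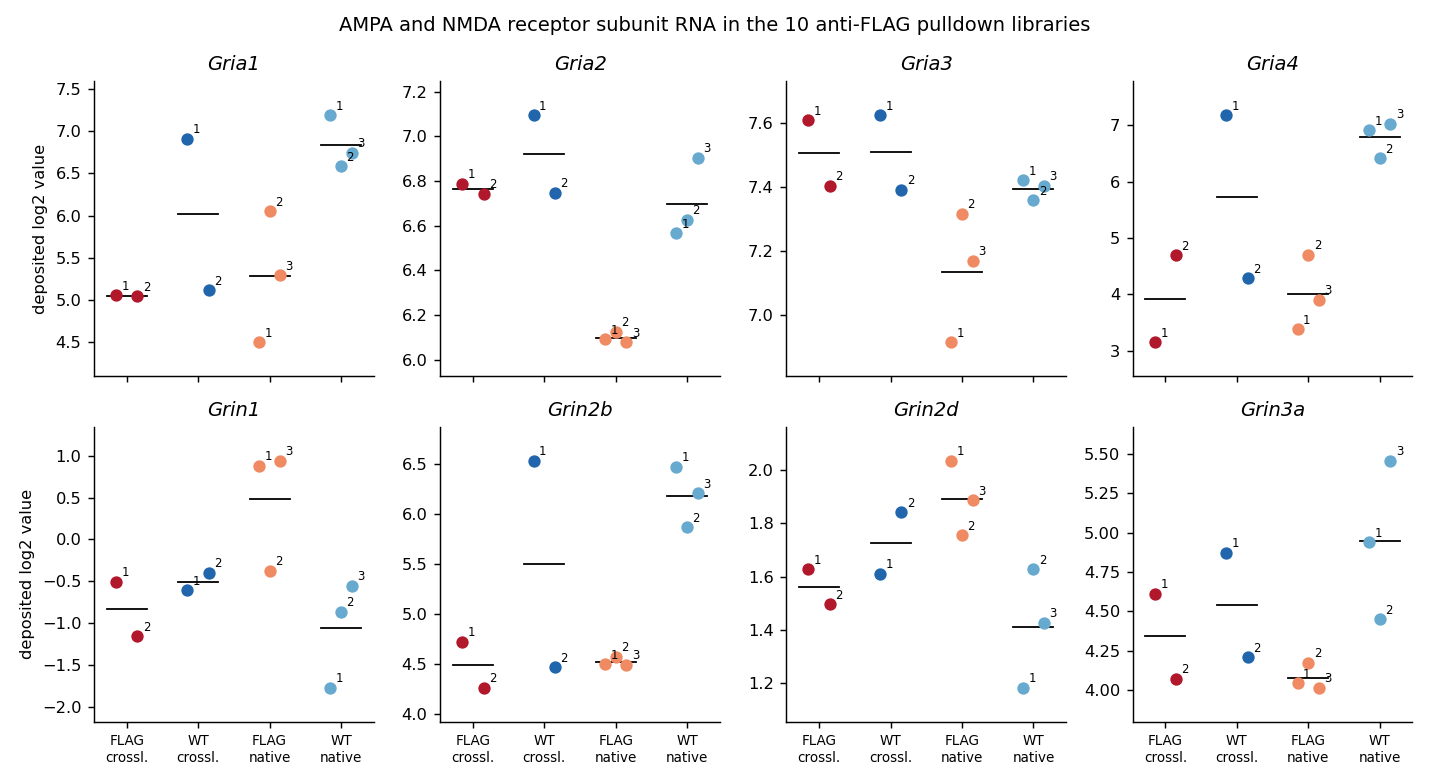
Deposited log2 values of the 8 AMPA and NMDA receptor subunit genes (y axis, scale set per gene) in FLAG and WT libraries, crosslinked and native (x axis). Each point is a library, numbered by replicate, and the line is the group mean. Gria1, Gria4 and Grin2b show WT crosslinked replicate 2 beside the FLAG crosslinked libraries, at 5.11, 4.29 and 4.47.

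Gria4 (ENSMUSG00000025892, chromosome 9, 4417896 to 4796234, minus strand) encodes the AMPA subunit GluA4. Its values were 3.39, 4.70 and 3.91 in FLAG native replicates 1 to 3 and 6.91, 6.42 and 7.02 in WT native replicates 1 to 3. In crosslinked libraries it was at 3.15 and 4.69 in FLAG and at 7.18 and 4.29 in WT. The native groups did not overlap, with a gap between the highest FLAG and the lowest WT library wider than the range within either group. The crosslinked groups did overlap, because WT replicate 2 lay between both FLAG libraries. The native log2 difference, FLAG minus WT, was -2.78 (SE 0.33, limma, adjusted p = 0.0297). The crosslinked difference was -1.81 (SE 1.16, adjusted p = 0.767), and it was -3.25 against WT replicate 1 alone and -0.36 against WT replicate 2 alone.

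Grin2b (ENSMUSG00000030209, chromosome 6, 135713233 to 136173511, minus strand) encodes GluN2B, the glutamate-binding NMDA subunit that prevails early in brain development. It was at 4.50, 4.57 and 4.49 in FLAG native and at 6.47, 5.86 and 6.20 in WT native. In crosslinked libraries it was at 4.72 and 4.26 in FLAG and at 6.53 and 4.47 in WT. All 5 FLAG libraries and WT crosslinked replicate 2 lay close together, and the other 4 WT libraries were all above them. The native difference was -1.66 (SE 0.20, limma, adjusted p = 0.0297). The crosslinked difference was -1.01 (SE 0.75, adjusted p = 0.797), and it was -2.04 against WT replicate 1 alone and 0.02 against WT replicate 2 alone.

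Gria1 (ENSMUSG00000020524, chromosome 11, 57011387 to 57330244, plus strand) encodes GluA1, the subunit tied most closely to activity-dependent AMPA receptor delivery. Its values were 4.50, 6.05 and 5.29 in FLAG native and 7.19, 6.59 and 6.75 in WT native. In crosslinked libraries it was at 5.05 and 5.05 in FLAG and at 6.91 and 5.11 in WT. Gria1 was the 1 member with every FLAG library below every WT library of its protocol in both protocols, a pattern seen in 4.47% of all genes, but in crosslinked libraries its margin to WT replicate 2 was small. The native difference of -1.56 (SE 0.36, limma, adjusted p = 0.194) and the crosslinked difference of -0.96 (SE 0.64, adjusted p = 0.775) did not pass the test. Against WT crosslinked replicate 2 alone the difference was -0.06, and against replicate 1 alone -1.86.

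Gria2 (ENSMUSG00000033981, chromosome 3, 80681450 to 80802835, minus strand) encodes GluA2, whose edited form makes AMPA receptors nearly impermeable to calcium. It was at 6.09, 6.13 and 6.08 in FLAG native and at 6.57, 6.63 and 6.90 in WT native, so that the groups did not overlap and the FLAG values were close to one another. In crosslinked libraries it was at 6.79 and 6.74 in FLAG and at 7.10 and 6.75 in WT, with WT replicate 2 between both FLAG values. The native difference was -0.60 (SE 0.16, limma, adjusted p = 0.232) and the crosslinked difference -0.16 (SE 0.15, adjusted p = 0.831).

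Gria3 (ENSMUSG00000001986, chromosome X, 41400854 to 41678601, plus strand) encodes GluA3, an AMPA subunit that often pairs with GluA2. It was at 6.91, 7.32 and 7.17 in FLAG native and at 7.42, 7.36 and 7.40 in WT native. Crosslinked values were 7.61 and 7.40 in FLAG and 7.62 and 7.39 in WT, about the same spread in both groups. The native difference was -0.26 (SE 0.16, limma, adjusted p = 0.397) and turned to 0.09 when the trend of each library on gene-body length was removed. The crosslinked difference was -0.00 (95% interval -0.38 to 0.37).

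Grin3a (ENSMUSG00000039579, chromosome 4, 49661611 to 49845744, minus strand) encodes the glycine-binding subunit GluN3A, which lowers the calcium permeability of NMDA receptors. It was at 4.04, 4.17 and 4.01 in FLAG native and at 4.94, 4.45 and 5.46 in WT native, without overlap. Crosslinked values of 4.61 and 4.07 in FLAG and 4.87 and 4.21 in WT overlapped. The native difference was -0.87 (SE 0.26, limma, adjusted p = 0.234) and the crosslinked difference -0.20 (SE 0.31, adjusted p = 0.909).

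Grin1 (ENSMUSG00000026959, chromosome 2, 25291181 to 25319187, minus strand) encodes the obligatory subunit GluN1, yet its value, not corrected for length, was close to the bottom of the matrix, with 2.25% of all genes below its mean. It was at 0.88, -0.38 and 0.94 in FLAG native and at -1.77, -0.86 and -0.55 in WT native. The 2 highest values were those of FLAG native replicates 1 and 3, the libraries with many genes tied at the lowest value, and the part of this in the Grin1 difference was not tested. Crosslinked values were -0.51 and -1.16 in FLAG and -0.61 and -0.40 in WT, with FLAG replicate 1 inside the WT range. The native difference was 1.54 (SE 0.59, limma, adjusted p = 0.274) and the crosslinked difference -0.33 (SE 0.39, adjusted p = 0.868). At so low a value the size depended on the scale, and with a pseudocount of 8 the native difference was 0.16 (adjusted p = 0.274). Grin1 exons overlap those of the antisense gene Grin1os over 1307 nt, and whether the counting used strand is not stated in the sources used here, so reads of both genes may be mixed.

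Grin2d (ENSMUSG00000002771, chromosome 7, 45831883 to 45878378, minus strand) encodes GluN2D, a subunit of slowly deactivating NMDA receptors, and 30.0% of genes had a mean value below its own, again with no correction for length. It was at 2.03, 1.76 and 1.89 in FLAG native and at 1.18, 1.63 and 1.43 in WT native, without overlap. Crosslinked values were 1.63 and 1.50 in FLAG and 1.61 and 1.84 in WT, with overlap. The native difference was 0.48 (SE 0.29, limma, adjusted p = 0.394) and the crosslinked difference -0.16 (SE 0.15, adjusted p = 0.825). Its exons overlap those of the antisense gene Gm45441 over 643 nt, and those of Grin2b overlap opposite-strand genes over 278 nt.

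A gene was called where the limma adjusted p over all 15899 genes was below 0.05 and the log2 difference was beyond 0.58 (1.5-fold). In native libraries 2 of the 8 members, Gria4 and Grin2b, were called lower in FLAG, against 0.107% of all genes. At an unadjusted p below 0.05 with the same fold limit, 5 members were lower (Gria1, Gria2, Gria4, Grin2b and Grin3a), against 7.06% of all genes, and 1 was higher (Grin1), against 7.77%. Every FLAG native library was below every WT native library for 6 members, against 10.8% of genes, and above for Grin1 and Grin2d, against 8.62%. The median native difference was -0.74 over the members and -0.04 over all genes. Because the members were chosen with earlier results of these data known, these contrasts with all genes are a description and not a test. The count of 2 moved with single libraries, from 0 when WT native replicate 1 or 3, or FLAG native replicate 1 or 3, was left out to 5 without FLAG native replicate 2. Without the trend of each library on gene-body length Gria4 was still called, while Grin2b was not (difference -1.31, limma adjusted p = 0.0688). Both calls were lost when all 4 groups shared 1 estimate of the spread (adjusted p = 0.142 for each).

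In crosslinked libraries no member was called, against 0% of all genes (limma, smallest adjusted p 0.315), and no member passed an unadjusted p of 0.05 with the fold limit, where 442 genes were higher and 157 lower. On simulated data this fit recovered 0 of 200 genes changed by 2 on the log2 scale, so the lack of calls says little about the members. All 8 differences were negative, as for 53.7% of genes, with a median of -0.26 over the members and -0.02 over all genes. Only Gria1 had both FLAG crosslinked libraries below both WT crosslinked libraries, against 19.9% of genes. The 2 WT replicates differed by more than 1 on the log2 scale for 3 of the 8 members (Gria1, Gria4 and Grin2b) and for 6.30% of all genes.

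With both protocols in 1 fit of the 10 libraries and a term for the protocol, no member was called, against 0.497% of all genes (limma). At an unadjusted p below 0.05 with the fold limit 4 members were lower, against 5.28% of genes. Gria4 was at -2.39 (SE 0.52, adjusted p = 0.0795), Grin2b at -1.40 (SE 0.33, adjusted p = 0.0868), Gria1 at -1.32 (SE 0.36, adjusted p = 0.112) and Grin3a at -0.60 (SE 0.23, adjusted p = 0.186). Without WT crosslinked replicate 2 the first 3 were called, at -2.93 for Gria4 (limma, adjusted p = 0.00789), -1.78 for Grin2b (adjusted p = 0.00211) and -1.65 for Gria1 (adjusted p = 0.0193). WT crosslinked replicate 2 was at the FLAG level for Gria1, Gria4 and Grin2b, so that leaving it out was bound to widen their differences. The fit also took the remaining libraries as independent. The difference of the FLAG effect between the protocols was called for no member, against 0% of all genes (smallest limma adjusted p 0.970), and Grin1 was the 1 member at an unadjusted p below 0.05 with the fold limit, against 0.233% of genes higher at that limit. Its difference was 1.87 (SE 0.82, limma, unadjusted p = 0.0466), and 0.18 when a pseudocount of 8 was added.

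**Figure D2:**
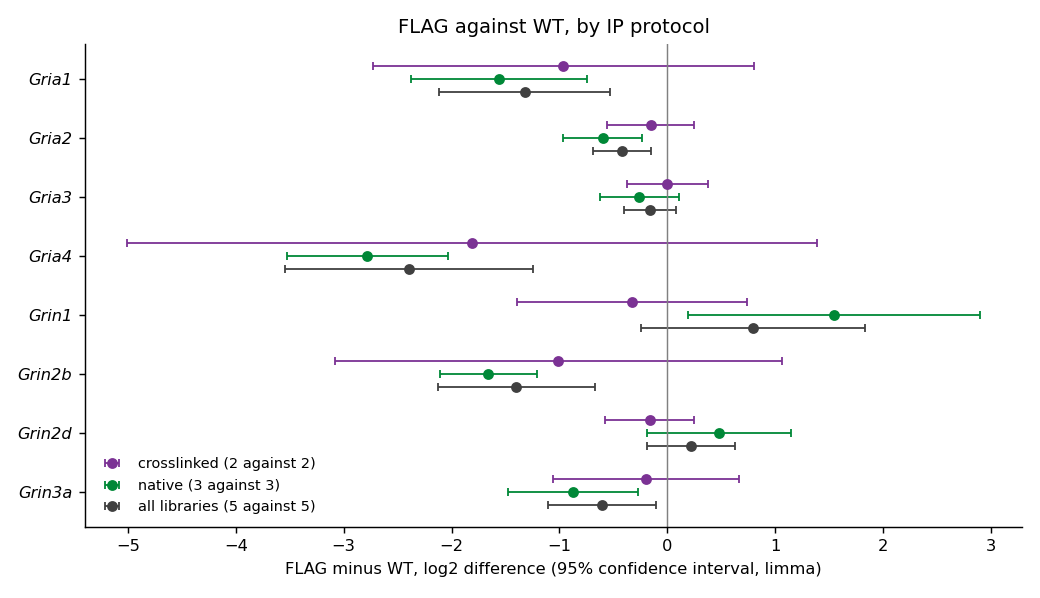
FLAG minus WT log2 differences of the 8 genes (x axis) with 95% confidence intervals from limma, in crosslinked, native and all libraries. The crosslinked intervals all include 0, while the native intervals of Gria4 (-3.53 to -2.04) and Grin2b (-2.11 to -1.21) lie well below it.

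Within the WT libraries, Gria1, Gria4, Grin2b and Grin3a were lowest where the Xist level was highest. Ordered by Xist from lowest to highest, the WT libraries (crosslinked 1, native 3, native 1, native 2 and crosslinked 2) had Gria4 at 7.18, 7.02, 6.91, 6.42 and 4.29. Grin2b was at 6.53, 6.20, 6.47, 5.86 and 4.47 in the same order. Gria1 was at 6.91, 6.75, 7.19, 6.59 and 5.11, and Grin3a at 4.87, 5.46, 4.94, 4.45 and 4.21. For these 4 genes the WT library with the highest Xist was the lowest and the one with the second highest Xist was the next lowest. Gria2 did not follow this order, at 7.10, 6.90, 6.57, 6.63 and 6.75, and Gria3 kept to a narrow range, at 7.62, 7.40, 7.42, 7.36 and 7.39. Grin1 and Grin2d went the other way, with their highest WT values, -0.40 and 1.84, in the library with the highest Xist. The share of all genes with the order of the 4 was not computed. The FLAG libraries, whose Xist levels span a narrower range, showed this order for none of the 4 genes. From the lowest to the highest Xist (native 3, native 2, native 1, crosslinked 1 and crosslinked 2) Gria4 was at 3.91, 4.70, 3.39, 3.15 and 4.69 and Grin3a at 4.01, 4.17, 4.04, 4.61 and 4.07. Gria1 was at 5.29, 6.05, 4.50, 5.05 and 5.05. Grin2b was at 4.49, 4.57, 4.50, 4.72 and 4.26, lowest at the highest Xist but highest at the second highest. With the Xist level as a covariate in the fit, an alternative chosen after seeing the data, the native differences were -2.24 for Gria4 and -1.36 for Grin2b and neither was called (limma, adjusted p = 1.00 for each). The native difference of Grin3a was -0.16 in that fit, in place of -0.87. Over all libraries that fit gave -1.29 for Gria4, -0.62 for Grin2b and -0.64 for Gria1 (adjusted p = 0.820 for each). In these libraries Xist and the genotype go together except in WT crosslinked replicate 2 and, in part, WT native replicate 2, and the part of what goes with Xist in the members' differences was not tested beyond that fit.

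**Figure D3:**
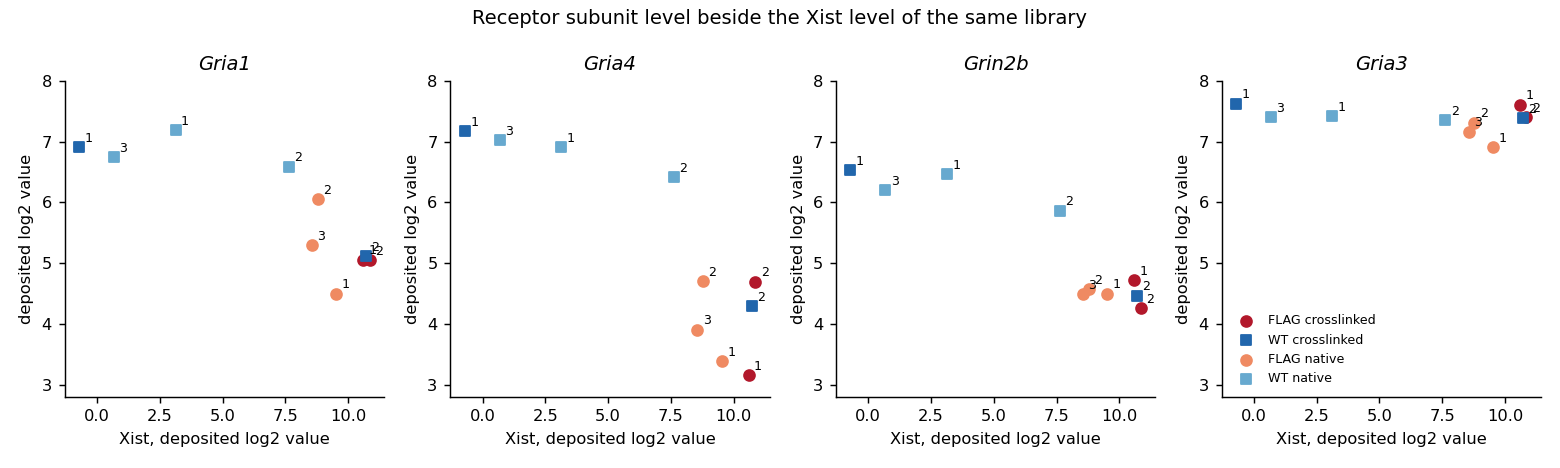
Level of Gria1, Gria4, Grin2b and Gria3 (y axis, deposited log2 value) beside the Xist level of the same library (x axis, deposited log2 value), with replicates numbered. WT crosslinked replicate 2 (Xist 10.7) lies with the FLAG libraries for the first 3 genes, while Gria3 differs little between libraries.

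Formaldehyde fixation itself moved none of the members past the test. In native against crosslinked libraries no member was called, against 4.11% of all genes (limma). Gria2 came nearest, with a native minus crosslinked difference of -0.45 (SE 0.12, adjusted p = 0.0729), which is within the fold limit. Under the alternatives its adjusted p went as low as 0.0030 (limma), while its difference stayed within the fold limit, from -0.56 to -0.37. The median was 0.21 over the members and -0.06 over all genes in this unpaired fit, and the members' median turned to -0.11 in the same fit without WT crosslinked replicate 2. With the replicate block within each genotype, which takes same-numbered native and crosslinked libraries as pairs, and with all libraries kept, the members' median was 0.071.

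Per kb of exon, which allows levels of different genes to be compared, Gria1 (log2 level per kb 4.25 ± 0.31, SD, n = 3), Gria4 (4.13 ± 0.32) and Gria3 (4.09 ± 0.03) led in WT native libraries and did not differ beyond their spread. Gria2 followed at 2.74 ± 0.18, then Grin2b at 1.54 ± 0.30 and Grin3a at 1.33 ± 0.51, a pair that did not differ beyond its spread. Grin2d was at -1.32 ± 0.22 and Grin1 last at -4.34 ± 0.63. In FLAG native libraries the means per kb put Gria3 first at 3.83, ahead of Gria1 at 2.69, Gria2 at 2.14 and Gria4 at 1.34. The gene bodies are long, up to 460.3 kb for Grin2b, and exons make up 1.67% of the Gria4 gene body and 34.6% of that of Grin1.

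Across the 10 libraries the log2 values of Gria1, Gria4 and Grin2b ran together (Pearson r 0.94 for Gria1 with Gria4, 0.92 for Gria1 with Grin2b and 0.92 for Gria4 with Grin2b), as did those of Grin1 with Grin2d (0.89), a description over libraries that share genotype and protocol. The gene most like Gria4 among 14850 genes was Ano4 (r 0.99) and that most like Grin2b was Adgrl2 (0.97). Gria1 ran most closely with Chn1os3 (0.98), Gria2 with Gm42611 (0.97), Gria3 with Gm43200 (0.96), and Grin3a with Grm5 (0.98), which encodes a metabotropic glutamate receptor. Grin1 ran with Gm6548 (0.95) and Grin2d with Dmac2 (0.93).

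Among related genes, Grin2a, which encodes the NMDA subunit GluN2A of mature synapses, was called lower in FLAG over all libraries. It was at 4.89, 6.11 and 4.48 in FLAG native and at 7.80, 7.44 and 7.12 in WT native, and at 5.53 and 5.25 in FLAG crosslinked and 7.63 and 6.34 in WT crosslinked. All FLAG libraries were below all WT libraries, WT crosslinked replicate 2 included. Over all libraries it was 4.04-fold lower in FLAG (log2 difference -2.01, SE 0.34, limma, adjusted p = 0.0366) in a fit that takes the 10 libraries as independent, and against WT crosslinked replicate 2 alone the difference was -0.95. With replicate numbers within each genotype as a random block, which takes same-numbered native and crosslinked libraries of 1 genotype as related, the difference was -2.05 and was not called (limma, adjusted p = 0.0908). With the replicate number as a block it was not called either (adjusted p = 0.0649). The Grin2a call was also lost when any library other than FLAG native replicate 2 and WT crosslinked replicate 2 was left out (limma, adjusted p = 0.0524 to 0.127), and with the Xist covariate the difference was -1.63 (adjusted p = 0.606).

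The kainate and delta receptor genes encode the other ionotropic glutamate receptors. All 7 were in the matrix, none was called, and 2 passed an unadjusted p of 0.05 with the fold limit over all libraries, both higher in FLAG, against 7.24% of all genes higher at that limit. Their median difference over all libraries was 0.70, against -0.51 for the members and -0.03 for all genes. Grik3, a kainate receptor subunit gene, had the largest difference of the list, with 7.44 and 7.61 in FLAG crosslinked and 4.01 and 7.38 in WT crosslinked. In native libraries it was at 6.88, 7.66 and 6.61 in FLAG and at 4.29, 5.87 and 4.63 in WT. Its difference over all libraries was 2.01 (SE 0.54, limma, adjusted p = 0.113), and WT crosslinked replicate 2 was again at the FLAG level. Grik5 had the lowest difference of the list, at -0.22.

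Other lists held no called gene in FLAG against WT. Of the metabotropic receptors 5 of 8 were in the matrix (median -0.17 over all libraries), with the highest difference in Grm8 at 0.19. The auxiliary subunits of AMPA and kainate receptors, which steer trafficking and gating, had 10 of 14 in the matrix and a median of -0.28, from Shisa6 at -0.78 to Neto2 at 0.27. Of the postsynaptic scaffolds 18 of 19 were in the matrix (median -0.04), from Dlgap1 at -1.07 to the higher of both rows for Dlg2 at 1.12. The 4 subunits of the kinase CaMKII ran from Camk2a at -0.54 to Camk2b at 0.22 (median -0.19), the 3 of 6 genes for glutamate uptake and release from Slc1a3 at -0.44 to Slc1a2 at 0.76 (median -0.32), and the 3 RNA editing enzymes from Adarb2 at -0.42 to Adarb1 at -0.08 (median -0.10).

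**Figure D4:**
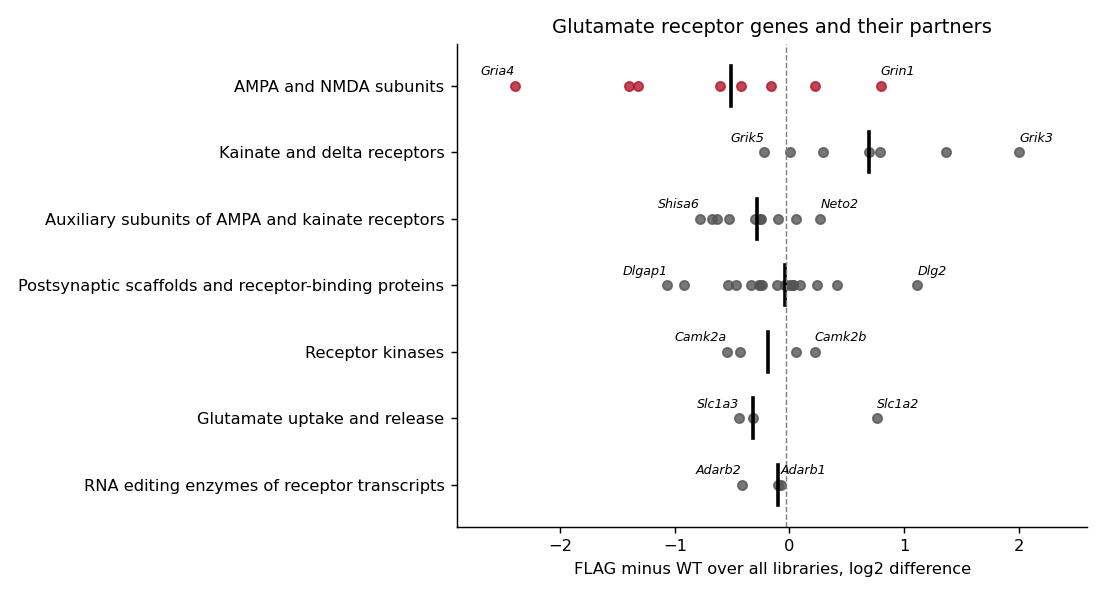
FLAG minus WT log2 differences over all libraries (x axis) for the 8 AMPA and NMDA receptor subunits and for lists of related genes (rows). Each point is a gene, the short line is the median of the list, the dashed line is the median of all genes (-0.03), and the lowest and highest gene of each list are named. The subunits reach further down than the other lists shown, to Gria4 at -2.39, and the kainate and delta receptors lie mostly above the dashed line.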

How the data were processed

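The table the authors deposited holds log2 values of 15899 genes in 10 libraries. Per the methods, 75-nt reads were cleaned (Cutadapt, then Trimmomatic), aligned to GRCm38 by HISAT2 and assigned to genes by featureCounts. The authors normalized these counts with DESeq2, and the submitters' processing notes also name limma. In the table each library has almost 1 common set of values, which quantile normalization would leave and the methods do not mention. Depth per library is unknown, so no interval for counting error is given.

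The values were used as deposited. For FLAG against WT, all genes were fitted by lmFit and eBayes with trend (limma 3.58.1, R 4.3.3), with Benjamini-Hochberg adjustment, within each protocol, over all libraries with protocol as a covariate, and for the difference between protocols; native was compared with crosslinked with genotype as a covariate. Calls needed an adjusted p below 0.05 and a log2 difference beyond 0.58. Members and lists were chosen with earlier results of these data known. The text names all members, from each list of related genes those called and those with the largest and smallest difference over all libraries, except 2 that are not reported here, and for each member the gene most alike by Pearson correlation among genes with a mean log2 value above 0. Xist, the Y-linked genes and Mex3a were added after their values were seen. Sequences, exons and UTRs came from GENCODE M21 on GRCm38, a later release than the authors' M16. The fits were tested on simulated data: of 200 genes changed by 2 on the log2 scale, 0 were recovered in crosslinked, 139 in native and 166 in all libraries.

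The alternatives were pseudocounts of 1 and 8, a filter on low values, quantile and median scaling, removal of trends on gene-body length and exonic share, replicate numbers as a block, array weights, robust moderation, 1 fit of 4 groups, omission of single libraries, and 2 forms of the motif search. The Xist level as a covariate, a block within each genotype (fixed, and random by duplicateCorrelation) and crossed numbers were added after seeing the data. Deviations of same-numbered FLAG and WT libraries from their group means did not run together, so the numbers were not taken to pair genotypes. Those of same-numbered native and crosslinked libraries of 1 genotype had r of 0.13 to 0.43. With 2 crosslinked libraries per genotype, the deviations of both mirror each other. The differently numbered WT crosslinked replicate 1 and WT native replicate 3 had r of 0.26. Some fits took the numbers to pair native and crosslinked libraries, but this pairing is not established.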

Additional observations from a re-analysis of the deposited data

How the results depend on the processing

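Of 811 values of single members under all alternatives, 743 kept their direction and their side of the threshold, 14 lost and 16 gained a call, and 38 changed sign. For native libraries the number of members called, 2 as reported, was 1 with the gene-body length trend removed, 6 with array weights (5 lower and Grin1 higher), and 0 with 1 fit of 4 groups or with the Xist level as a covariate. Leaving out single libraries gave 0 to 5. The number of all genes called there, 17 as reported, was 3577 with array weights, 27 with robust moderation, 4 with 1 fit of 4 groups and 0 with the Xist covariate, and 0 to 3160 with 1 library left out. The members' native median of -0.74 was -0.48 without the length trend and -0.31 with the Xist covariate. Over all libraries 4 members were called with array weights and 0 to 3 with 1 library left out (2 without FLAG native replicate 2, 3 without WT crosslinked replicate 2). The number of all genes called there, 79 as reported, was 41 with a pseudocount of 8, 2069 with array weights, 6 with the Xist covariate and 13 to 702 with 1 library left out. In crosslinked libraries leaving out 1 library gave 0 to 4 genes and no member. For native against crosslinked, 653 genes became 197 with a pseudocount of 8, 2028 with array weights and 236 to 1049 with 1 library left out, and the members' median of 0.21 was 0.060 with a pseudocount of 8, -0.035 with array weights and -0.11 to 0.34 with 1 library left out. For the difference between protocols the range was 0 to 1 gene, and the members' median ran from -0.81 to 0.34. The cause of these shifts was not tested.

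With the replicate block 1 member was called in native libraries (Gria4, adjusted p = 0.0466 in limma), 34 genes were called over all libraries, and 305 in native against crosslinked. The block within each genotype, which takes same-numbered libraries as pairs, left 445 genes and no member called in native against crosslinked. As a random block it gave 15 genes and no member in FLAG against WT over all libraries, where it also ended the Grin2a call, and 1138 genes and no member in native against crosslinked. Crossed numbers as a block in the crosslinked libraries gave 0 calls.

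Signs changed as follows. Without the length or the exonic share trend Gria3 turned to 0.059 and 0.059 (crosslinked), 0.087 and 0.084 (native), 0.076 and 0.074 (all libraries) and 0.028 and 0.026 (difference between protocols). With the Xist covariate in crosslinked libraries Gria2 was at 0.019, Gria3 at 0.12, Grin2b at 0.031 and Grin3a at 0.14. With array weights over all libraries Grin1, 0.80 as reported, was at -0.25 and Grin2d at -0.026. In native against crosslinked Grin3a was at -0.041 with the replicate block and with the fixed block within each genotype, and at -0.045 with the Xist covariate, but at 0.035 with the random block, and with array weights Gria4 was at -0.072, Grin1 at -0.0026 and Grin2d at -0.067. With 1 library left out, crosslinked differences ran from -0.12 to 0.12 for Gria3, -0.53 to 0.14 for Grin3a, -0.33 to 0.018 for Gria2 and -2.04 to 0.023 for Grin2b. The difference between protocols ran from -1.50 to 0.30 for Gria1, -2.42 to 0.47 for Gria4 and -1.68 to 0.38 for Grin2b. Native against crosslinked ran from -0.091 to 0.13 for Grin2d, -0.10 to 1.01 for Gria4, -0.12 to 0.68 for Grin2b and -0.14 to 0.25 for Grin3a. The motif search found a match in 6 members when the last bases were AT in place of TA, and in 7 with merged 3′ UTR exons.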

Other observations

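Markers of cell types that neurospheres can hold were read in the same libraries. Of the neuronal markers 6 of 9 were in the matrix, with a summed log2 level of 5.59 to 6.08 in FLAG crosslinked, 5.75 to 5.81 in WT crosslinked, 5.63 to 5.70 in FLAG native and 5.79 to 6.17 in WT native. Rbfox3, which encodes the neuronal nuclear protein NeuN, was 2.48-fold lower in FLAG over all libraries (log2 difference -1.31, SE 0.17, limma, adjusted p = 0.0127), and it was at 4.42 and 4.47 in WT crosslinked replicates 1 and 2, so that the second replicate did not stand apart for this gene. With the Xist covariate its difference was -1.29 (limma, adjusted p = 0.209), and of the single libraries left out only WT native replicate 1 ended the call (adjusted p = 0.0503). The median difference of the neuronal list over all libraries was -0.53, beside -0.51 for the receptor subunits and -0.03 for all genes. Its other members were not called, with Snap25 at -0.64, Camk2a at -0.54, Syt1 at -0.52, Gad2 at 0.61 and Gad1, a GABA synthesis enzyme, at 0.65. The 2 neuroblast markers in the matrix of 7 looked for, Cd24a and Sox11, had differences of 1.24 and 1.58 and neither was called.

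Of the endothelial markers 3 of 4 were in the matrix, and Flt1, a VEGF receptor gene, was 4.70-fold higher in FLAG (2.23, SE 0.40, limma, adjusted p = 0.0468) while Kdr had a difference of -1.09. With replicate numbers within each genotype as a random block Flt1 was not called (limma, adjusted p = 0.0908), while Rbfox3 was (adjusted p = 0.0243). The Flt1 call was also lost when any library other than FLAG native replicate 2 and WT crosslinked replicate 2 was left out (limma, adjusted p = 0.0792 to 0.154), and with the Xist covariate the difference was 1.21 (adjusted p = 0.509). The oligodendrocyte lineage list (4 of 7 in the matrix) had its highest difference in Olig1 at 1.21, the stem cell and astroglial list ran from Slc1a3 at -0.44 to Aldoc at 1.02, the microglial list (3 of 5) from P2ry12 at -0.35 to Cx3cr1 at 0.19, and the ependymal list (2 of 3) from Rarres2 at 0.27 to Foxj1 at 0.35, with no gene called in FLAG against WT. Fabp7, Cd24a and Olig1 were called higher in native than in crosslinked libraries (limma, adjusted p = 0.0377, 0.0322 and 0.0195). The part of these markers in the differences of the receptor subunits was not tested.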
